A study of Rattus norvegicus with 8 samples.

Results

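The genes described here encode aminoacyl-tRNA synthetases and translation initiation factors, and their transcripts were measured in rat tibialis anterior, which lies along the shin and is built mostly of fast fibres. Members were chosen by name alone, from probe sets that carry a single gene symbol: synthetase symbols of 1 letter followed by ars, ars1 or ars2, with Eprs1, Farsa and Farsb, and every symbol that starts with Eif except the Y-linked Eif2s3y. This gave 80 genes of the 14217 named on the array, 32 synthetases and 48 factors. Each was represented by its brightest probe set. Vars2, the mitochondrial valyl-tRNA synthetase, lay under the filter on low values, so 79 members were tested, 31 synthetases and 48 factors.

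RNA came from 8 adult Sprague-Dawley rats that weighed 200 ± 40 g at the start, 1 array per rat. The hyperthyroid group comprised 4 rats given T3 (triiodothyronine, the form of thyroid hormone that binds its receptors). Over 6 weeks they were injected intraperitoneally once every 2 days with 25 µg for each 100 g they weighed, and tissue was taken 24 hours after the final injection. The control group comprised 4 untreated rats, for which the labels name no vehicle injection. Each group held 3 males and 1 female, and the comparison asked which transcripts of this muscle differ under prolonged T3 excess.

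A synthetase joins an amino acid to the tRNA that carries its codon's partner, so that each amino acid has an enzyme for the cytosol and most have another for mitochondria. Several cytosolic enzymes are held in a multi-synthetase complex. Initiation factors bring the initiator tRNA, the small ribosomal subunit and a capped mRNA together. The eIF2 complex delivers the initiator tRNA and is reloaded by eIF2B, eIF3 binds the small subunit, and eIF4E, eIF4G and eIF4A recognise the cap and unwind the leader. Cells restrain the process by phosphorylating eIF2 or by holding eIF4E on a binding protein. Both controls act on proteins, which arrays of RNA do not measure.

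Values are deposited intensities on a linear scale, and differences are log2 values, hyperthyroid minus control. On every array the mean of the intensities was 150 with 2% left out at each end. Array medians ran from 38.8 to 54.9. Muscle identity was clear on all arrays, with the fast myosin Myh4 between 23971 and 36144. The 10 markers of skeletal fibres summed to 294925 to 361574 on hyperthyroid and to 358392 to 432932 on control arrays, and 9 of the 10 were below 0 in the difference. The 100 brightest probe sets held 22.4% to 25.1% of the signal on hyperthyroid and 26.4% to 28.4% on control arrays. The part of this difference in the values below was not tested beyond the rescaling given beside them. Of the 10 skeletal fibre markers, 6 had an unadjusted p under 0.05, all lower, where 5.21% of all genes were. Groups did not overlap for 5 of the 10, all lower, where 3.21% of all genes were. All 8 slow-fibre markers were below 0, with a median of -3.00. Of these, 6 had an unadjusted p under 0.05, against 5.21% of all genes in that direction. The slow-fibre markers were highest on control replicates 7 and 11, and the counts, the list medians and the named members were also computed without both. Of the other cell types the dissected muscle could hold, none of the endothelial, macrophage, adipocyte, fibroblast or erythroid markers measured had an unadjusted limma p under 0.05. Of Schwann cell markers 1 of 5 did and of smooth muscle markers 1 of 6, both lower, as 5.21% of all genes were. By array, fibroblast and matrix markers summed to 32131 on hyperthyroid replicate 5 and 21046 on control replicate 11, against 2764 to 10474 elsewhere. Macrophage markers were also highest on these arrays. Schwann cell markers summed to 3344 and 2307 on control replicates 7 and 11, against 467 to 1208 elsewhere. The part of these markers in the values below was not tested. In whole muscle, fewer cells of a type and less RNA per cell cannot be told apart.

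No synthetase and no initiation factor passed an adjusted p of 0.05 over all 10200 genes tested, where 7 genes did (0.0686%). Before adjustment, 5 of the 79 members had a limma p under 0.05, a share of 6.33% against 10.6% of all genes. Of these, 4 (Gars1, Hars1, Eif1ax and Eif3a) had higher means in hyperthyroid muscle, as 5.38% of all genes did at that p, and 1 (Eif3f) had a lower mean, as 5.21% did. They were also the 5 members whose 4 hyperthyroid and 4 control arrays did not overlap, again 6.33% against 6.55% of all genes (3.34% higher and 3.21% lower). Under this scaling, neither share of the members exceeded that of all genes. With arrays centred on their medians, 16 of the 79 had an unadjusted p under 0.05, all higher. This was 20.3%, against 15.2% of all genes in either direction. The 16 were 10 of 31 synthetases (32.3%) and 6 of 48 factors (12.5%). Centring moved the median of all genes to 0.22, and the share of all genes higher at that p is not given here. Median standard errors in the main fit were 0.21 for synthetases and 0.17 for factors, against 0.27 for all genes. The part of either in these counts was not tested.

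The Hars1 promoter is shown because the 2 histidyl-tRNA synthetase genes are neighbours transcribed away from each other, and the mean of each was higher in hyperthyroid muscle. The sequence, from RefSeq (GRCr8), runs from 250 bases before to 50 after the annotated start of Hars1, chr18:28672663-28672962 on the minus strand. Capitals mark the 143 bases between the annotated starts of Hars1 and Hars2.
Hars1: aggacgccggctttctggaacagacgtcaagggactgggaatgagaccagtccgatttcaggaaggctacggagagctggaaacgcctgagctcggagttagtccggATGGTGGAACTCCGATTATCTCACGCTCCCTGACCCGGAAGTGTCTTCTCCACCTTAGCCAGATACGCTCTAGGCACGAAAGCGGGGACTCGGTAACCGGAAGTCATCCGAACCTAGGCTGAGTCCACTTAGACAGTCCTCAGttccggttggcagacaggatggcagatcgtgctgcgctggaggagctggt

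The starts lie 144 bases apart, on opposite strands, and the promoter windows of Hars1 and Hars2 share 243 bases. Hars1 encodes the cytosolic histidyl-tRNA synthetase and Hars2 the mitochondrial one.

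Gars1, the glycyl-tRNA synthetase, which serves cytosol and mitochondria from 1 gene, had intensities of 326, 349, 400 and 344 on control replicates 7, 8, 9 and 11. On hyperthyroid replicates 1, 3, 5 and 2 it was at 716, 558, 634 and 635. The groups did not overlap, and the lowest hyperthyroid array lay well above the highest control. The mean went from 355 ± 31.9 to 636 ± 64.4 (SD, n = 4 each), a log2 difference of 0.83 ± 0.15 (SE, 95% interval 0.52 to 1.15), or 1.78-fold. Its limma adjusted p was 0.0741, the ninth smallest p of all genes. It passed the threshold under 3 of 19 alternatives: with arrays centred on their medians (limma adjusted p = 0.0278), with no filter (0.0433) and with a robust variance (0.0369). Over all alternatives its adjusted p ran from 0.0278 to 0.496, the highest when both probe sets were averaged. The second, dimmer probe set of Gars1 gave 0.31 ± 0.42.

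Hars1 had control intensities of 91.0, 109, 179 and 144 (replicates 7, 8, 9 and 11). Its hyperthyroid intensities were 262, 203, 268 and 219 (replicates 1, 3, 5 and 2). The groups were separate by a small margin, between control replicate 9 and hyperthyroid replicate 3. The log2 difference was 0.88 ± 0.23 (SE, n = 4 each, limma adjusted p = 0.237), and it ran from 0.43 to 1.10 over the alternatives. A second probe set of Hars1 gave -0.02 ± 0.29, so the difference rested on the brighter one, and with both averaged the unadjusted p was 0.0849. For Hars2, the 2 probe sets gave 0.49 ± 0.26 and 0.94 ± 0.42, with overlapping groups in both. The dimmer had an unadjusted p of 0.0439 in the fit over probe sets. Among the controls, the brightest probe set of Hars2 was lowest on replicates 9 and 11, and that of Hars1 on replicates 7 and 8.

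**Figure D1:**
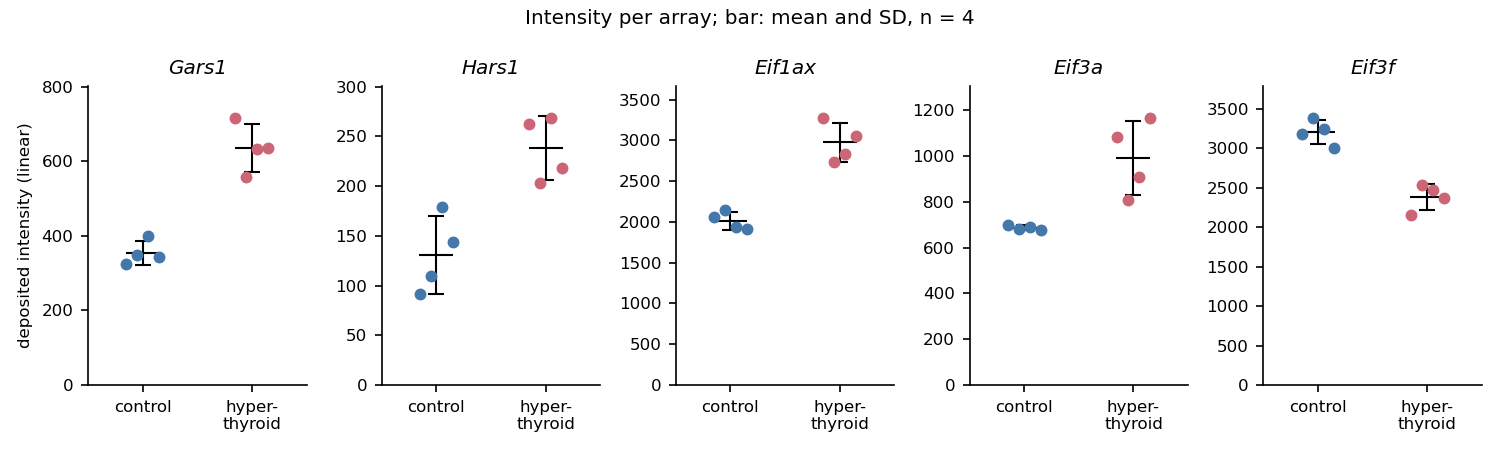
Deposited intensity (linear, axis from 0) of the 5 members whose groups do not overlap, with 1 point per array, controls on the left and hyperthyroid on the right of each panel, and bars for the mean and SD (n = 4 each). Gars1 runs from 326 to 400 in controls and from 558 to 716 in hyperthyroid muscle, and Eif3f is the 1 gene of the 5 with lower hyperthyroid values.

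The 19 synthetases whose symbol does not end in 2, Gars1 and Hars1 among them, had a median of 0.15, with 14 above 0 and 5 below, against a median of -0.00029 over all genes. The 17 other than Gars1 and Hars1 had a median of 0.11, with 12 above 0 and 5 below, and none had an unadjusted p under 0.05. Kars1, lysyl-tRNA synthetase, had control intensities of 798, 854, 975 and 690 (replicates 7, 8, 9 and 11). Its hyperthyroid intensities were 947, 1004, 971 and 1142 (replicates 1, 3, 5 and 2). Its groups overlapped through control replicate 9, and the log2 difference was 0.30 ± 0.14 (SE, n = 4 each, limma adjusted p = 0.476). The 7 measured enzymes of the multi-synthetase complex (Eprs1, Iars1, Kars1, Lars1, Mars1, Qars1 and Rars1) had a median of 0.17. Of these, 6 were above 0 and Mars1, methionyl-tRNA synthetase, was at -0.23 ± 0.16. None of the 7 had an unadjusted p under 0.05. Relative to each gene's mean, their mean level was -0.28 on control replicate 11 and between -0.03 and 0.03 on the other controls, against 0.01 to 0.09 on hyperthyroid arrays. The median was 0.12 without control replicate 11 and 0.07 without control replicates 7 and 11.

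Eprs1, which charges both glutamate and proline, differed by 0.15 ± 0.13, with an interval of -0.12 to 0.43. Lars1, the leucyl-tRNA synthetase, which also senses leucine for mTORC1, differed by 0.17 ± 0.14. Rars1, arginyl-tRNA synthetase and the member with the brightest probe set among synthetases, differed by 0.19 ± 0.14. Wars1, tryptophanyl-tRNA synthetase, differed by 0.20 ± 0.19. A dimmer probe set gave the opposite sign for Wars1 (-0.55), Lars1 (-0.13) and Eprs1 (-0.28), while another of Eprs1 gave 0.18. With the brightest probe sets, all 4 intervals stayed within a 2-fold change in either direction. On the low side, Yars1, tyrosyl-tRNA synthetase, gave -0.28 ± 0.19 and Sars1, seryl-tRNA synthetase, -0.15 ± 0.14.

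The mitochondrial synthetases were measured less precisely. The 12 tested had a median of -0.05, with 6 above 0 and 6 below, and a median standard error of 0.29 against 0.16 for the other 19. The 95% interval stayed within a 2-fold change in either direction for 6 of these 12 and for 17 of the 19. No mitochondrial enzyme had an unadjusted p under 0.05. Ears2, glutamyl-tRNA synthetase and the dimmest tested, was at 29.9 ± 15.2 in controls and 49.6 ± 16.3 in hyperthyroid muscle (SD, n = 4 each), a log2 difference of 0.79 ± 0.53. Aars2 and Cars2, which charge alanine and cysteine, gave -0.58 ± 0.51 and -0.56 ± 0.42. Aars2 was at 11.4 on hyperthyroid replicate 5 and between 65.2 and 99.2 on every other array.

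Over all 31 synthetases the median was 0.08, with 20 above 0 and 11 below, and 2 had an unadjusted limma p under 0.05, both higher, where 5.38% of all genes did in that direction. The mean level of the 31, relative to each gene's mean, was -0.02, 0.08, -0.03 and -0.18 in controls (replicates 7, 8, 9 and 11). In hyperthyroid muscle it was 0.09, 0.08, -0.13 and 0.13 (replicates 1, 3, 5 and 2). The groups overlapped, with control replicate 11 lowest and hyperthyroid replicate 5 next to it. Both were the arrays with the highest fibroblast and matrix markers, and a link was not tested. The median turned to -0.05 without control replicate 11. With arrays centred on their medians it was 0.30 and the median of all genes was 0.22. Centring moves every gene by the same step, so the distance of 0.08 from all genes could not change. That distance was 0.045 with quantile normalization and 0.024 with the mean of probe sets.

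**Figure D2:**
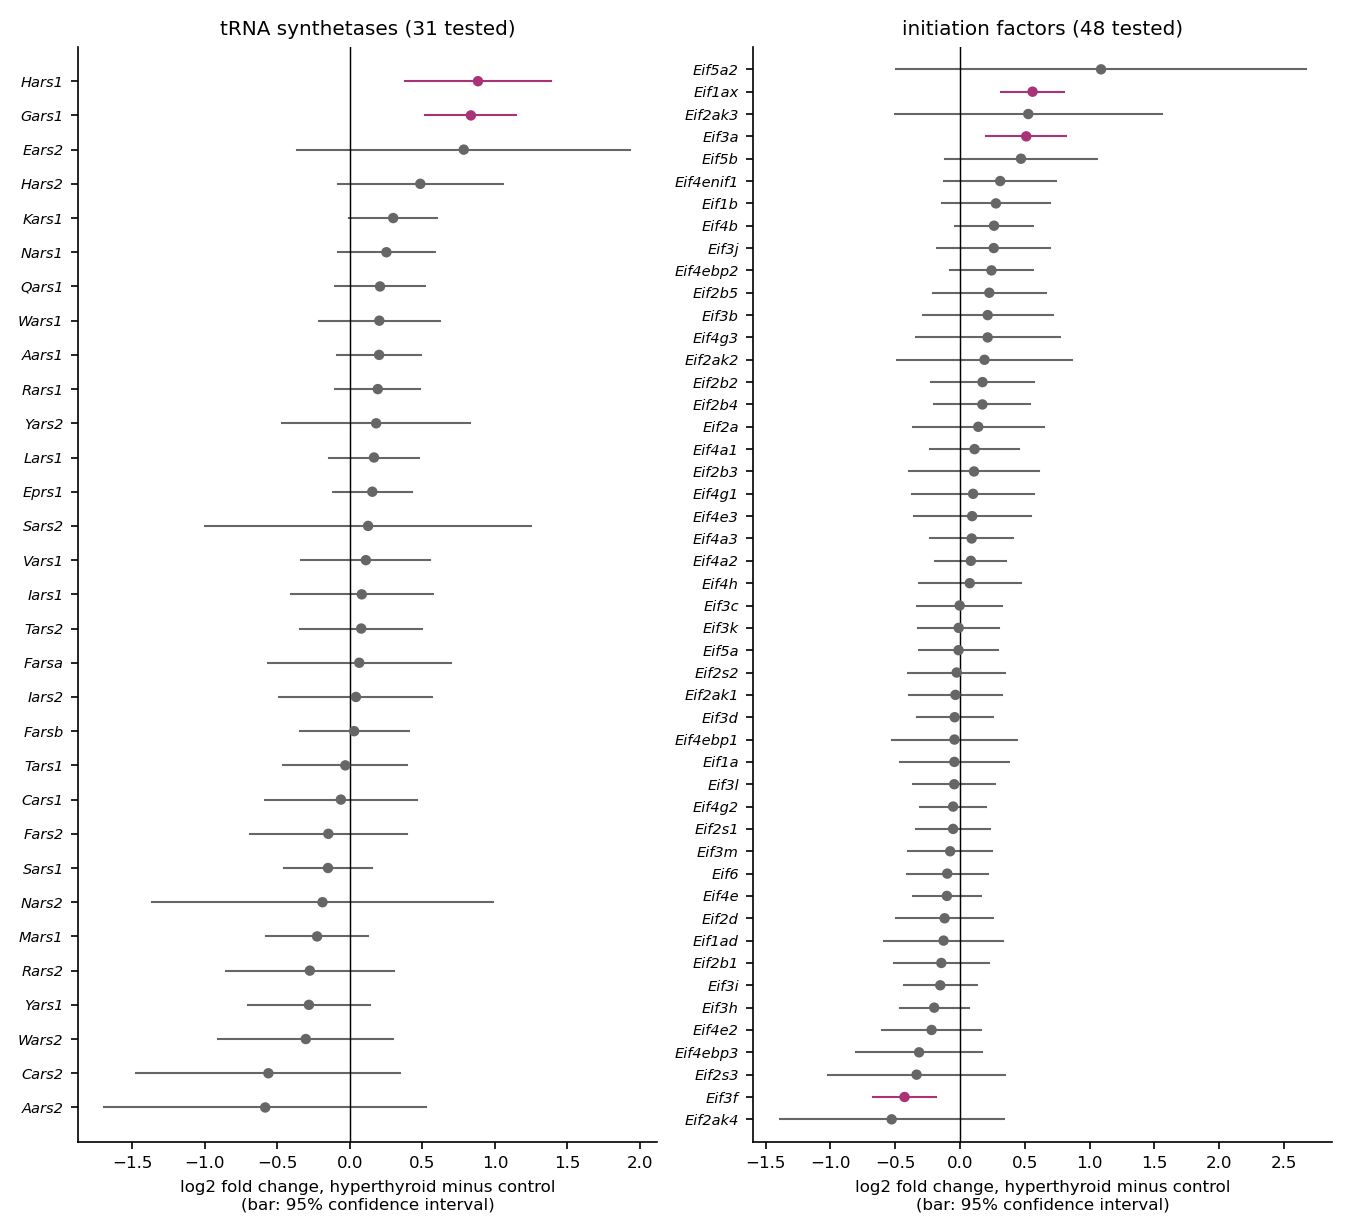
Log2 difference, hyperthyroid minus control, of the 31 synthetases (left) and 48 initiation factors (right), each a point with its 95% confidence interval from limma, ordered by size. Purple marks the 5 members with an unadjusted p under 0.05, none of which passes after adjustment over all genes, and the widest intervals belong to dim genes such as Eif5a2 and Ears2.

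The amino acid response acts on many synthetase genes through ATF4, a transcription factor that binds a composite element with the letters TGATGNAA. On either strand, these letters occurred in the promoter windows of 7 of 30 matched synthetases (23.3%), of 1 of 44 matched factors (2.27%) and of 3.82% of all 27457 promoters of the same length. The matches of 6 of these synthetases, 1 each, are shown with 10 bases on each side, on the gene's strand, because these genes share the letters and not a direction of difference. Capitals mark the match as read on the gene's strand, also where the letters lie on the opposite one, and the last sequence ends with its window. All are from RefSeq (GRCr8).
Cars1, chr1:208225335-208225362, minus strand: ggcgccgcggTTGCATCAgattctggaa
Iars1, chr17:15193659-15193686, minus strand: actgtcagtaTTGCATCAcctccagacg
Mars1, chr7:65023753-65023780, minus strand: cccgttccggTTGCATCAgcgtgggctc
Nars1, chr18:60275779-60275806, minus strand: ctaggtgatcTGATGCAAcgcttcagtc
Tars1, chr2:62114812-62114839, minus strand: tggcgtcccgTTGCATCAgctggttagc
Yars1, chr5:146820191-146820212, plus strand: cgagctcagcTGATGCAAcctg

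Of the 7 synthetases with these letters, 3 were above 0 and 4 below, with a median of -0.03 and a range of -0.28 to 0.25. Their smallest unadjusted limma p was 0.128. A match of letters is a description of the window and not evidence of binding. Of a list of ATF4 itself, its known targets and genes of the eIF2 phosphatase, 17 of 23 genes were measured, with a median of 0.06, 10 above 0 and 7 below. Atf4 differed by -0.09 ± 0.17 with all arrays. An unadjusted p under 0.05 was reached by 3 of the 17, where 10.6% of all genes did: Atf5, a related factor, at 0.49 ± 0.20, Slc7a1, a cationic amino acid transporter, at 1.45 ± 0.62, and Slc3a2, the heavy chain of amino acid transporters, at -0.47 ± 0.17. Without control replicates 7 and 11, Slc3a2 was at -0.44 (unadjusted p = 0.0652) and Slc7a1 at 2.18. Atf4 itself was at -0.41 ± 0.13 without these 2 controls and Atf5 at 0.68 ± 0.22, both with an unadjusted p under 0.05. The difference of Atf4 thus depended on these arrays. None passed after adjustment.

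Among factors that set up the start codon, Eif1ax, which encodes eIF1A, the factor that stabilises the scanning ribosome, was at 2064, 2145, 1935 and 1913 on control replicates 7, 8, 9 and 11. It was at 3275, 2738, 2836 and 3052 on hyperthyroid replicates 1, 3, 5 and 2. The groups were well apart, and the arrays within each were close together. The log2 difference was 0.56 ± 0.11 (SE, n = 4 each, 95% interval 0.31 to 0.81, limma adjusted p = 0.135), or 1.47-fold. It was between 0.51 and 0.78 under all 19 alternatives, with an unadjusted p under 0.05 in each and an adjusted p from 0.0642 to 0.429. The gene has 1 probe set. Eif1a, a close relative on another chromosome, had 4 probe sets, which gave between -0.18 and 0.12. Whether the probe sets of the 2 genes cross-hybridise was not tested.

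No other gene of this step had an unadjusted p under 0.05. The 10 factors of the ternary complex and start codon had a median of -0.03, with 4 above 0. Of the eIF2 subunits, Eif2s1, whose phosphorylation slows initiation, differed by -0.05 ± 0.13, Eif2s2 by -0.03 ± 0.17 and Eif2s3 by -0.33 ± 0.32. Eif5b, which joins the ribosomal subunits, gave 0.47 ± 0.27, and its 2 other probe sets gave 0.28 and 0.34. Eif5b was lowest on control replicate 11, at 313 where the other controls were between 655 and 943.

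No subunit of the exchange factor eIF2B had an unadjusted p under 0.05. Its 5 subunit genes had a median of 0.17 and 4 were above 0, with intervals that stayed within a 2-fold change for all 5. Eif2b5, the catalytic subunit, was at 0.23 ± 0.20. The 4 kinases that phosphorylate eIF2 had a median of 0.08. Eif2ak3, the kinase of endoplasmic reticulum stress, differed by 0.53 ± 0.48 and Eif2ak4, which senses uncharged tRNA, by -0.53 ± 0.40. Both were dim, with intensities of 38.3 ± 20.1 and 62.9 ± 18.5 in controls (SD, n = 4 each), and their intervals extend past a 2-fold change.

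The eIF3 complex held 2 of the 3 factors with an unadjusted p under 0.05, with differences of opposite sign. Eif3a, a scaffold of the complex, had control intensities of 699, 682, 692 and 676 (replicates 7, 8, 9 and 11). Its hyperthyroid intensities were 1083, 809, 907 and 1166 (replicates 1, 3, 5 and 2). The controls were nearly identical and all hyperthyroid arrays lay above them, spread more widely. The log2 difference was 0.51 ± 0.14 (SE, n = 4 each, limma adjusted p = 0.25), or 1.43-fold. Its dimmer probe set gave 0.08 ± 0.49, and with both averaged the difference was 0.30 and the unadjusted p was 0.245.

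Eif3f, the subunit that the atrophy ligase atrogin-1 marks for degradation in muscle, was at 3188, 3386, 3245 and 3012 on control replicates 7, 8, 9 and 11. It was at 2156, 2539, 2472 and 2376 on hyperthyroid replicates 1, 3, 5 and 2. All hyperthyroid arrays lay below all controls. The log2 difference was -0.43 ± 0.11 (SE, n = 4 each, 95% interval -0.67 to -0.19, limma adjusted p = 0.231), or 0.743-fold. Where arrays were centred on their medians it was -0.21 (unadjusted p = 0.192), against a median of 0.22 over all genes under that scaling. Under the other 18 alternatives its unadjusted p was under 0.05.

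The promoters of these 2 eIF3 genes are shown because their transcripts differed in opposite directions while both windows hold an E-box, CACGTG, which is the same on both strands and is marked in capitals. The sequences, from RefSeq (GRCr8), cover chr1:269918976-269919275 on the minus strand for Eif3a and chr1:172368812-172369111 on the plus strand for Eif3f.
Eif3a: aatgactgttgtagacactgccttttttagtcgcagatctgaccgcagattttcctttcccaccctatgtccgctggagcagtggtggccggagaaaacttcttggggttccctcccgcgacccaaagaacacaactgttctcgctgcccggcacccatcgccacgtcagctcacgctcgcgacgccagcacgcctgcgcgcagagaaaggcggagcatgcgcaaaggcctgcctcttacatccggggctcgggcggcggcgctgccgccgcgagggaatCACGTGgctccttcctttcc
Eif3f: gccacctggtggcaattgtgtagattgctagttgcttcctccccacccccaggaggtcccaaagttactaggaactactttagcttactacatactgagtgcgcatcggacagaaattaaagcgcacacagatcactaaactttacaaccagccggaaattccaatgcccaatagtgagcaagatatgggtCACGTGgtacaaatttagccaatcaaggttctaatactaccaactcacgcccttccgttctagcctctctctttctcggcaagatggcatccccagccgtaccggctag

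The first base of the E-box lies at position 31 after the annotated start in Eif3a and 59 bases before it in Eif3f. CACGTG occurred in 9 of 44 factor promoters (20.5%), 6 of 30 synthetase promoters and 6.65% of all promoters. The half-site of thyroid hormone receptors, AGGTCA, searched on both strands, occurred in 6 of 44, 6 of 30 and 15.7%. None of the printed promoters holds it, which says only that these letters are absent from these windows.

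No other eIF3 subunit had an unadjusted p under 0.05. Of the 11 measured subunits 3 were above 0 and 8 below, with a median of -0.04, and the interval of each stayed within a 2-fold change. Eif3h, which shares a module of the complex with Eif3f, gave -0.20 ± 0.12, Eif3i -0.15 ± 0.13 and Eif3c -0.0025 ± 0.15. The dimmer probe sets of Eif3h and Eif3c gave 0.44 ± 0.74 and 0.86 ± 0.46. Eif3j, which is loosely bound, gave 0.26 ± 0.20, with controls that ran from 2546 on replicate 11 to 5784 on replicate 9.

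**Figure D3:**
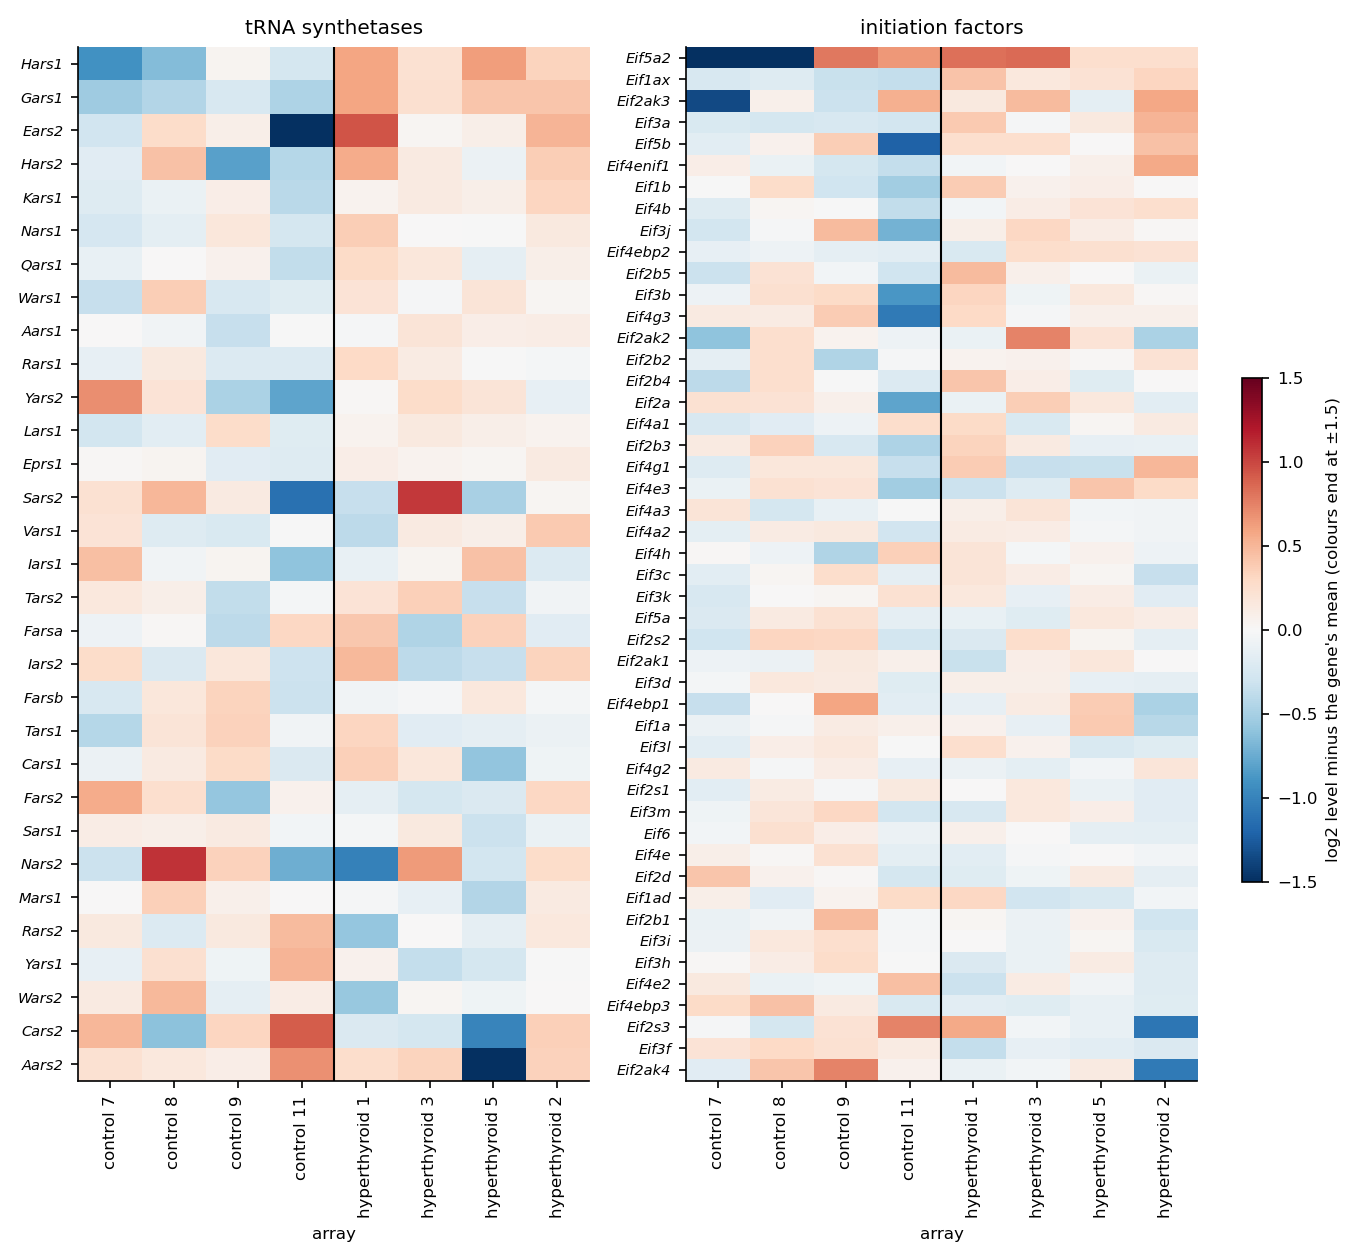
Log2 level of each tested member on each array, minus the gene's mean over the 8 arrays, for synthetases (left) and initiation factors (right), with genes in order of their difference, controls left of the black line and hyperthyroid arrays right of it. Red is above and blue below the gene's mean, with colours ending at ±1.5, and the rows of Gars1, Eif1ax and Eif3f change colour at the line. The row of Hars1 does so except on control replicate 9, and that of Eif3a except on hyperthyroid replicate 3. Control replicate 11 is low for many others.

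At the cap, no factor had an unadjusted p under 0.05. The 10 genes of cap binding and helicase had a median of 0.09, 7 above 0 and 3 below, and every interval stayed within a 2-fold change. Eif4e, the cap-binding protein, had control intensities of 2044, 1943, 2251 and 1731 (replicates 7, 8, 9 and 11). Its hyperthyroid intensities were 1721, 1896, 1930 and 1857 (replicates 1, 3, 5 and 2). These ranges overlapped, and the log2 difference was -0.10 ± 0.12. Eif4g1, the scaffold, gave 0.10 ± 0.22, and Eif4b, a helper of the helicase, 0.26 ± 0.14. The helicases Eif4a1 and Eif4a2 gave 0.11 ± 0.16 and 0.08 ± 0.13, the latter with the brightest probe set of all members, at 9926 ± 1432 in controls and 10452 ± 656 in hyperthyroid muscle (SD, n = 4 each).

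None of the 4 genes that restrain eIF4E had an unadjusted p under 0.05. Eif4ebp1, a binding protein released under mTORC1, had control intensities of 467, 596, 896 and 533 (replicates 7, 8, 9 and 11). Its hyperthyroid intensities were 546, 650, 778 and 428 (replicates 1, 3, 5 and 2). The groups overlapped over most of their range, with a log2 difference of -0.04 ± 0.22 and an interval of -0.53 to 0.44. Eif4ebp2 gave 0.24 ± 0.15, Eif4ebp3 -0.32 ± 0.23 and Eif4enif1, which carries eIF4E to the nucleus, 0.31 ± 0.20. Of factors with other roles, Eif5a, which eases peptide bond formation, gave -0.01 ± 0.14 and Eif6, which keeps ribosomal subunits apart, -0.10 ± 0.14. Eif5a2, the dimmest factor, gave 1.09 ± 0.73, with intensities of 6.54 and 3.92 on control replicates 7 and 8 and of 32.2 to 50.4 on every other array. It passed the filter on its mean over all arrays, while its mean log2 level over the controls alone lay under the filter.

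Over all 48 factors, 24 were above 0 and 24 below, with a median of 0.04. With arrays centred on their medians it was 0.26, where the distance of 0.04 from all genes could not change. That distance was 0.0016 with quantile normalization and 0.10 with the mean of probe sets. Without control replicate 11 the median was -0.03. The mean level of the 48, relative to each gene's mean, was -0.13, 0.04, 0.11 and -0.14 in controls (replicates 7, 8, 9 and 11). In hyperthyroid muscle it was 0.08, 0.06, 0.05 and -0.05 (replicates 1, 3, 5 and 2). Control replicates 7 and 11 were the lowest and control replicate 9 the highest of all, so the controls spanned the whole hyperthyroid range. Of the 79 members, 66 had a 95% interval within a 2-fold change in either direction, so for these a larger difference is outside the interval.

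Probe sets of the same gene did not always give the same sign. Of the 79 tested members, 29 had at least 2 probe sets above the filter, and in 13 of these all had the same sign. Of the 38 probe sets that were not the brightest of their gene, 3 had an unadjusted p under 0.05 in the fit over probe sets: those of Hars2, Eif4e3 and Eif4h. In the fit over genes 10.6% of all genes did, and the share over all probe sets is not given here. Eif4e3, a cap-binding relative of eIF4E, gave 0.09 ± 0.21 with the brightest and 0.52 ± 0.19 with the other probe set. Eif4h, a cofactor of the helicase, gave 0.08 ± 0.19 and 1.85 ± 0.67. The latter probe set was dim, at 2.81 and 8.37 on control replicates 9 and 11. Its mean log2 level over the controls alone lay under the filter, so it was kept only through the hyperthyroid arrays. Its difference is therefore no support for a change of Eif4h.

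**Figure D4:**
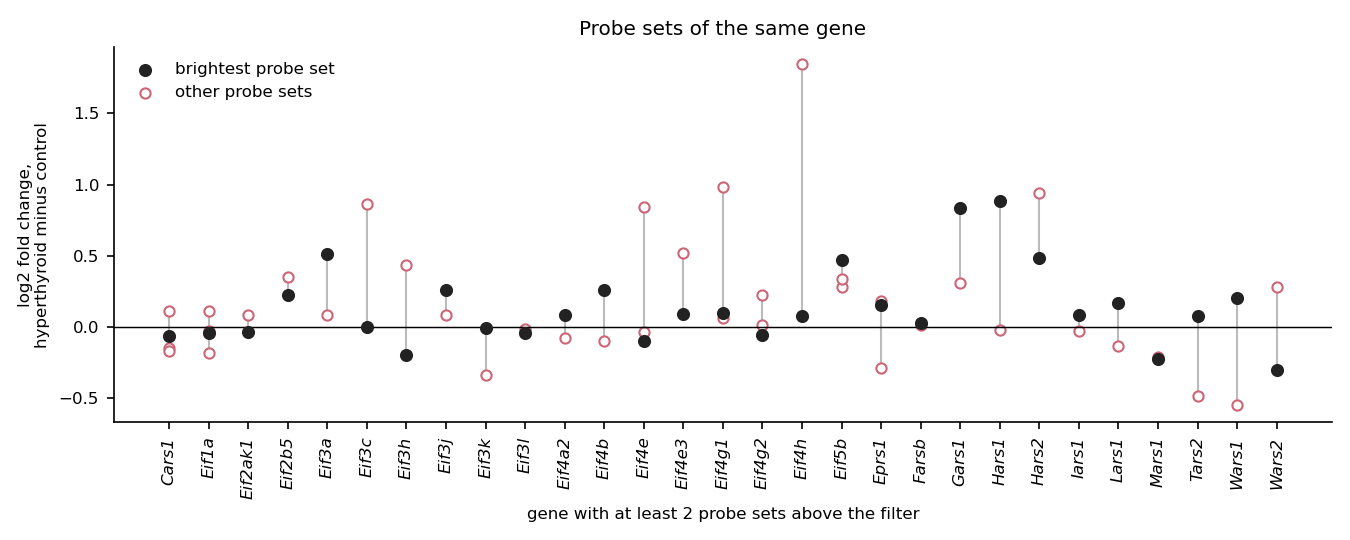
Log2 difference, hyperthyroid minus control, of every probe set above the filter for the 29 members with at least 2, filled for the brightest and open for the others, joined by a line per gene. Both probe sets of Gars1 are above 0, at 0.83 and 0.31, whereas those of Hars1 are at 0.88 and -0.02.

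Genes of the steps around initiation were counted from lists. Of 12 measured genes of elongation, recycling and termination, 10 were above 0, with a median of 0.24, and 4 had an unadjusted p under 0.05, all higher, as 5.38% of all genes were. Their mean level, relative to each gene's mean, was -0.24 on control replicates 7 and 11, the arrays with the highest slow-fibre markers, 0.03 and 0.09 on control replicates 8 and 9, and 0.04 to 0.14 on hyperthyroid arrays. Without control replicates 7 and 11 the median was 0.0090, with 7 of the 12 above 0 and 2 at an unadjusted p under 0.05. Eef1g and Eef1b2, subunits of the complex that reloads the elongation factor, differed by 0.49 ± 0.12 and 0.43 ± 0.12 (limma adjusted p = 0.221 and 0.239). These 2 of the 12 had no overlap between groups, where 3.34% of all genes were higher without overlap. Eef1a2, the muscle form of that elongation factor, differed by 0.41 ± 0.13 and Etf1, the release factor, by 0.51 ± 0.21, and without control replicates 7 and 11 these were 0.26 and 0.09. Eef1a1, the widespread form, gave -0.37 ± 0.21. None passed over all genes. Of 9 measured partners of the synthetases, 6 were above 0 and 2 had an unadjusted p under 0.05, both higher, as 5.38% of all genes were: Aimp1, a scaffold of the multi-synthetase complex, at 0.31 ± 0.13, and Sepsecs, which makes selenocysteinyl-tRNA, at 0.60 ± 0.22. Both had no overlap between groups, where 3.34% of all genes were higher without overlap. Without control replicates 7 and 11, Aimp1 and Sepsecs were at 0.26 and 0.30 and none of the 9 had an unadjusted p under 0.05. The second scaffold, Aimp2, gave 0.33 ± 0.15. Dtd2, which removes wrongly attached amino acids, was the 1 partner without overlap that was lower, at -0.70 ± 0.42. Of all genes, 3.21% were lower without overlap.

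Of the 12 mitochondrial translation factors measured, 6 were above 0 and 6 below, with a median of 0.02. Groups did not overlap for 2 of the 12, where 6.55% of all genes had no overlap: Mtrf1, a mitochondrial release factor, was higher, at 0.30 ± 0.17, and Tufm, the mitochondrial elongation factor, was lower. The mean intensity of Tufm was 1570 ± 133 in controls and 1141 ± 168 in hyperthyroid muscle (SD, n = 4 each), and the log2 difference was -0.47 ± 0.14 (limma adjusted p = 0.273). Of 17 measured genes of the mTORC1 pathway, 8 were above 0, with a median of -0.02, and 3 had an unadjusted p under 0.05, where 10.6% of all genes did. These were the kinases Akt1 and Akt2, each at 0.58 with standard errors of 0.18 and 0.19, and Rheb, the GTPase that activates mTORC1, at -0.27 ± 0.12. Without control replicates 7 and 11, Akt2 was at 0.37 (unadjusted p = 0.109) and Rheb at -0.28 (0.0601). Mtor itself gave -0.03 ± 0.16. None of the genes of these lists passed after adjustment.

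**Figure D5:**
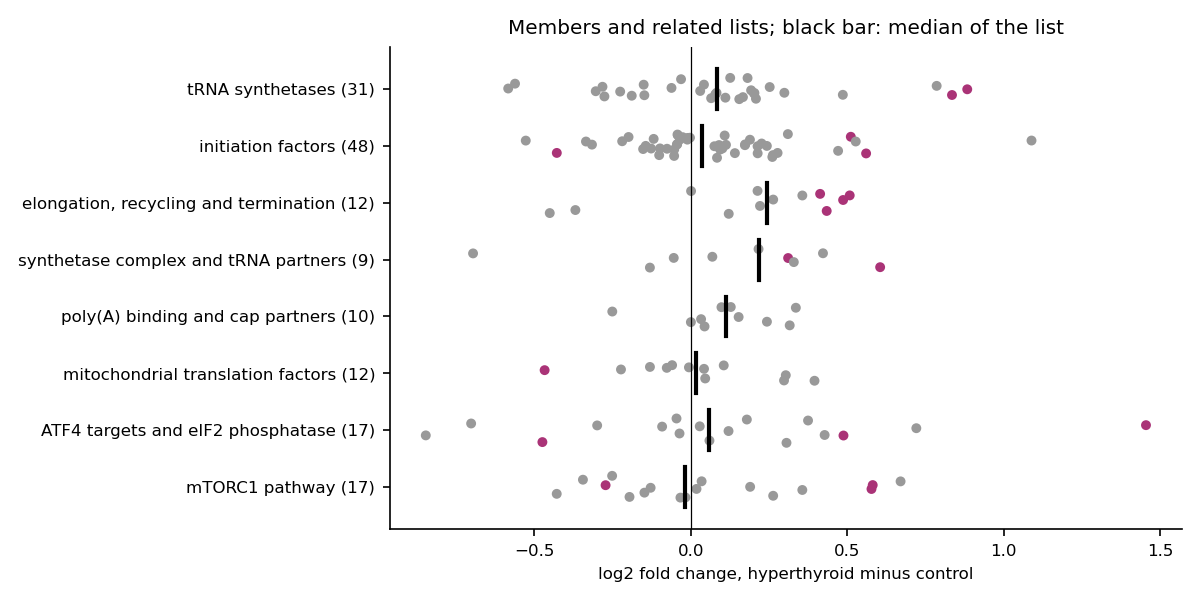
Log2 difference, hyperthyroid minus control, of each tested gene in 8 groups, with the number of genes in brackets, a black bar for the median of the group and purple for an unadjusted p under 0.05. The synthetases and factors centre at 0.08 and 0.04, and the elongation list at 0.24, which is 0.0090 without control replicates 7 and 11.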

How the data were processed

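The authors deposited intensities on a linear scale, 1 column per array. The submitters' processing notes name GCOS, software by Affymetrix. How it was set, which version ran and how probes were summarised is not given in the sources used here. RNA was labelled from oligo(dT)-primed cDNA, per the labels' protocols, which favours probes close to a transcript's 3' end. Of 31099 probe sets, 57 controls were left out. Symbols came from the platform annotation, and all 80 members matched RefSeq (GRCr8) under the same symbol. Values were analysed as log2(intensity + 3.41), the 10th percentile of all values, which understates changes of dim genes. Probe sets with a mean log2 level above the 40th percentile (4.69) were kept, 18625 in all, and each of 10200 genes was represented by the brightest. The test was limma 3.58.1 (R 4.3.3) with a variance trend, two-sided, Benjamini-Hochberg adjusted over all genes at 0.05. The groups share no replicate number. On simulated data of 10200 genes, 47% of log2 shifts of 1 and 85% of shifts of 2 were recovered, with 11 false calls in the same fit. Members and lists were chosen with earlier results of these data known. Members were named when their unadjusted p was under 0.05, when groups did not overlap, as the brightest or dimmest of their group, or from 16 genes fixed by role. Of each related list, the 3 genes with the smallest p could be named, and all other named genes were chosen after their values were seen. Brightness served to filter probe sets, to choose a gene's probe set and the members named, and in the variance trend. Some promoter windows with a motif match are not reported here. The fit was repeated with the mean of probe sets, array weights, a robust variance, a variance without trend, a stricter filter (60th percentile) or none, a floor of 1.40, a pseudocount of 12.6, arrays centred on medians, quantile normalization, and each array left out. Leaving out control replicates 7 and 11 together was chosen after seeing the data.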

Additional observations from a re-analysis of the deposited data

How the results depend on the processing

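No paired analysis was possible because the groups share no replicate number. Of the results under 19 alternatives, the counts of initiation factors past the adjusted threshold stayed at 0 in all. The count of all genes past it was 7, and became 12 with centring on array medians, 11 with no filter, 14 with a robust variance, 0 with no variance trend, 1 with the mean of probe sets and 3 without control replicates 7 and 11, and ran from 0 to 7 with 1 array left out. Of synthetases, 1 passed (Gars1) with centring on array medians, no filter or a robust variance, and 0 with any array left out. With centring, 10 synthetases and 6 factors had an unadjusted p under 0.05, all higher (32.3% and 12.5%, against 15.2% of all genes in either direction). The medians were 0.30 and 0.26, against 0.22 over all genes. With 1 array left out the counts at that p ran from 2 to 5 and from 3 to 5, the highest without control replicate 9. The share of all genes at that p ran from 8.08% to 11.8%, and was also highest without control replicate 9. The medians ran from -0.053 to 0.16 and from -0.034 to 0.086. Without control replicates 7 and 11 the factor median was -0.079. The sign turned for 8 named members. With centring these were Eif2s1 (0.17), Eif4e (0.12), Eif4ebp1 (0.18), Eif5a (0.21) and Eif6 (0.12), all below the shift of 0.22 in all genes. With array weights these were Eif4ebp1 (3.9e-05) and Eif4g1 (-0.0081), with the mean of probe sets Eif4e (0.24) and Wars1 (-0.17), and without control replicates 7 and 11 Eif4a2 (-0.092) and Eif4g1 (-0.12). With 1 array left out, Eif4ebp1 ran from -0.18 to 0.15, Eif4g1 from -0.049 to 0.24 and Eif5a from -0.085 to 0.065. The cause of these changes was not tested. With 4 arrays per group, differences of dim members such as Ears2, Eif5a2 and Eif2ak4 were not measured well enough to exclude a 2-fold change.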

Other observations

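Eif1ax and Eif2s3 lie on the X chromosome, and 1 array of each group had high Xist, the RNA of the inactive X: hyperthyroid replicate 1 at 490 and control replicate 11 at 344, where the other arrays were between 12.4 and 49.97. Eif2s3, the gamma subunit of eIF2, was highest in its group on both of these arrays, at 361 and 407, and between 112 and 282 on the other 6. Eif1ax was highest in its group on hyperthyroid replicate 1, at 3275, and lowest in its group on control replicate 11, at 1913. These values were looked at after the results above were known, with 1 such array per group, and were not tested.

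In each of 46 sets of 4 arrays, 2 for each of the 23 members named by rule, neither the highest nor the lowest array stood apart from the others by Dixon's criterion, which chance meets in about 1 set of 20. The other members were not part of this check, among them Aars2, which was at 11.4 on hyperthyroid replicate 5.

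The 10 measured genes of poly(A) binding and cap partners had a median log2 difference of 0.11, with 9 above 0, and none had an unadjusted limma p under 0.05.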
